A study of Mus musculus with 65 samples.

Results

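The genes described here make cholesterol, set how much of it a cell makes, or move it between membranes. They were taken by name as 29 of the 55292 genes of the deposited table of read counts, and all 29 were present in it. Of these, 8 encode enzymes of the mevalonate and isoprenoid steps, 11 act between squalene and cholesterol, 5 belong to the SREBP control system, and 5 carry, export or store sterols. Their levels were read in 65 single outer hair cells (OHCs), the motile sensory cells of the cochlea, each picked by hand at postnatal day 10. The 17 cells labelled Casz1 CKO came from Atoh1Cre/+; Casz1flox/flox; Slc26a5FlpO/+; Rosa26FSF-H2BEGFP/+ mice, and the 48 WT cells came from Slc26a5FlpO/+; Rosa26FSF-H2BEGFP/+ mice. Both groups thus carried the Slc26a5-driven FlpO recombinase and the nuclear GFP reporter by which OHCs were found, and the WT group lacked the Cre as well as the floxed alleles. Atoh1-Cre acts in hair cells and in other cells of the Atoh1 lineage, so the deletion is not limited to OHCs. The series asks what Casz1, a zinc finger transcription factor, does for hair cell fate and survival.

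Cholesterol is built from acetyl-CoA through mevalonate, isoprenoid pyrophosphates, squalene and lanosterol. When sterol in the endoplasmic reticulum is low, SCAP escorts the SREBP transcription factors to the Golgi, where they are cut and released to activate the enzyme genes. When sterol is high, the INSIG proteins hold SCAP and SREBP back. In OHCs, membrane cholesterol is known to influence prestin, the motor protein in the lateral wall that makes these cells change length.

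The labels name no animal, so each genotype counted as 1 sample, no test was possible between genotypes, and every difference below is a description of these cells. Levels are counts per 1000000 counts (CPM), and a group's level is its summed counts over its summed total. Intervals of CPM and of ratios are exact 95% intervals for counting error only, and they do not cover the spread between cells or animals. Intervals of shares of cells are exact binomial and take each cell as a unit, although cells are not replicates of a genotype. Order-statistic intervals of medians are taken over the genes of a list. As a measure of overlap, a pair share gives the percent of the 816 pairs of 1 CKO-labelled and 1 WT cell in which the CKO-labelled cell was higher, with ties counted as 0.5. Casz1 itself had 46.2 CPM in CKO-labelled cells (45.2 to 47.1), with a count in 15 of 17 cells. In WT cells it had 53.3 CPM (52.7 to 53.9), with a count in 42 of 48 cells. By cell number, its level was 85.2 CPM in WT cells 1 to 11, 40.58 CPM in cells 12 to 45 and 40.97 CPM in cells 46 to 48. WT cells 1 to 11 alone thus stood above the CKO-labelled level. The median cell stood at 41.7 CPM among CKO-labelled cells and 31.98 CPM among WT cells. Which exons were floxed is not given in the sources used here, so a count over the whole gene does not check the deletion.

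Promoter sequence was available for 24 of the 29 genes, from RefSeq on GRCm38.p6, as windows of 250 bases before to 50 bases after each listed start. They bear on the data because SREBP is known to act beside NF-Y, which binds CCAAT, and the enzyme genes are known to share that control. The word CCAAT, on either strand, lay in at least 1 window of 21 of the 24 genes (87.5%) and of 15 of the 16 synthesis genes with a window (93.8%), against 41.1% of all 27025 genes of the promoter table and 42.3% of its coding genes. The Sp1 word GGGCGG lay in 22 of 24 (91.7%), against 38.2% of all genes and 49.2% of coding genes. The word CACGTG lay in 6 of 24 (25.0%), against 8.09% of all genes. The sterol response word TCACNCCAC lay only in the Hmgcs1 window among the 24 genes, against 1.44% of all genes. Fdft1, Fdps, Sqle, Stard4 and Npc1 had no window and were not searched. None of these 4 words contains another, and both strands were searched. A match describes letters in a fixed window and shows neither binding nor activity. Absence of 1 strict word from a window does not show that a gene lacks an SREBP site. Hmgcs1 is printed for its sterol response word, Hsd17b7 and Pmvk because they had the highest levels per length, and Insig2 because it had the largest deficit in CKO-labelled cells by pair share; capitals mark CCAAT on either strand and, in Hmgcs1, also TCACNCCAC.
Hmgcs1 (chr13:119690101-119690400, + strand): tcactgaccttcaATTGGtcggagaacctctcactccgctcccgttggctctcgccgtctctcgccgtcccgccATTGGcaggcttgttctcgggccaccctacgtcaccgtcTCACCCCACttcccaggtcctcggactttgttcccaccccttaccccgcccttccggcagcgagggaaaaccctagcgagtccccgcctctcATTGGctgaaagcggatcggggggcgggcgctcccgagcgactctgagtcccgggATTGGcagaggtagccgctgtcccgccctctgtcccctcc
Hsd17b7 (chr1:169969156-169969455, - strand): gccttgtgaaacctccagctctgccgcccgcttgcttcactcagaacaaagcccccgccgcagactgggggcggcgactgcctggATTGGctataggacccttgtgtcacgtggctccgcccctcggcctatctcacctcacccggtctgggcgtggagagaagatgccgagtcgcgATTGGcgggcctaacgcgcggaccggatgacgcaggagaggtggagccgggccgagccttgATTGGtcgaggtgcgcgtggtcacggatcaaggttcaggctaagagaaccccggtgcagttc
Pmvk, 1 of 2 windows (chr3:89454291-89454590, + strand): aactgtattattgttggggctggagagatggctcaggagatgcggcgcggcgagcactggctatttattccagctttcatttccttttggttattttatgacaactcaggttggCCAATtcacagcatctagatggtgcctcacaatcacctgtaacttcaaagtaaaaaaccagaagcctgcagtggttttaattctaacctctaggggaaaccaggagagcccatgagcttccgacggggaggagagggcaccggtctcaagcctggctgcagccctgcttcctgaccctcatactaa
Insig2, 1 of 3 windows (chr1:121332540-121332839, - strand): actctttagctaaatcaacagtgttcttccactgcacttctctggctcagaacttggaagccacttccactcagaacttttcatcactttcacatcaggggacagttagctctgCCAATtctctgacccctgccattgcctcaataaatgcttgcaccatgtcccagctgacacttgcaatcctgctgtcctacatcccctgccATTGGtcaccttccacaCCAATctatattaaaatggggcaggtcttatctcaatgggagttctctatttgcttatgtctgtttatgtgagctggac
The Hmgcs1 window held 4 CCAAT words, those of Hsd17b7 and Insig2 held 3 each, and that of Pmvk held 1. The other windows of Pmvk and Insig2 held none.

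Levels along the pathway were very uneven. To compare genes, summed CPM was divided by the merged exon length of each gene in kb. This length joins the exons of all annotated transcripts, which need not be those present in these cells. Hsd17b7, whose enzyme acts on the sterol ring at C-3 during demethylation, stood at 173 CPM per kb in CKO-labelled cells and 177 CPM per kb in WT cells. Pmvk, the phosphomevalonate kinase gene, stood at 188 CPM per kb in CKO-labelled cells and 119 CPM per kb in WT cells. These were the highest levels of the 29 genes in both groups, and in WT cells they ranked 305 and 464 among the 53180 genes with a length. Next in WT cells, with their CKO-labelled level given first, came Nsdhl, the C-4 decarboxylase, at 29.5 against 35.8 CPM per kb, Acat2, which condenses acetyl-CoA, at 37.9 against 30.1 CPM per kb, and Srebf2, the SREBP gene that mainly serves sterol synthesis, at 24.9 against 21.7 CPM per kb.

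Neighbouring enzymes of the pathway thus stood at very different levels per length. Lss, which cyclises squalene epoxide to lanosterol, stood at 1.30 CPM per kb in CKO-labelled cells and 0.587 in WT cells, the lowest of the 29 in WT cells. This rank depends on its merged length of 10787 bases. By CPM alone, Fdps at 2.86 and Dhcr7 at 4.58 CPM stood below Lss at 6.33 CPM in WT cells. Dhcr7, which catalyses a last step to cholesterol, stood at 1.64 CPM per kb in CKO-labelled cells and 0.788 in WT cells. The 5 transport genes lay between 0.00269 and 1.401 CPM per kb in CKO-labelled cells and between 1.27 and 2.68 CPM per kb in WT cells.

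**Figure D1:**
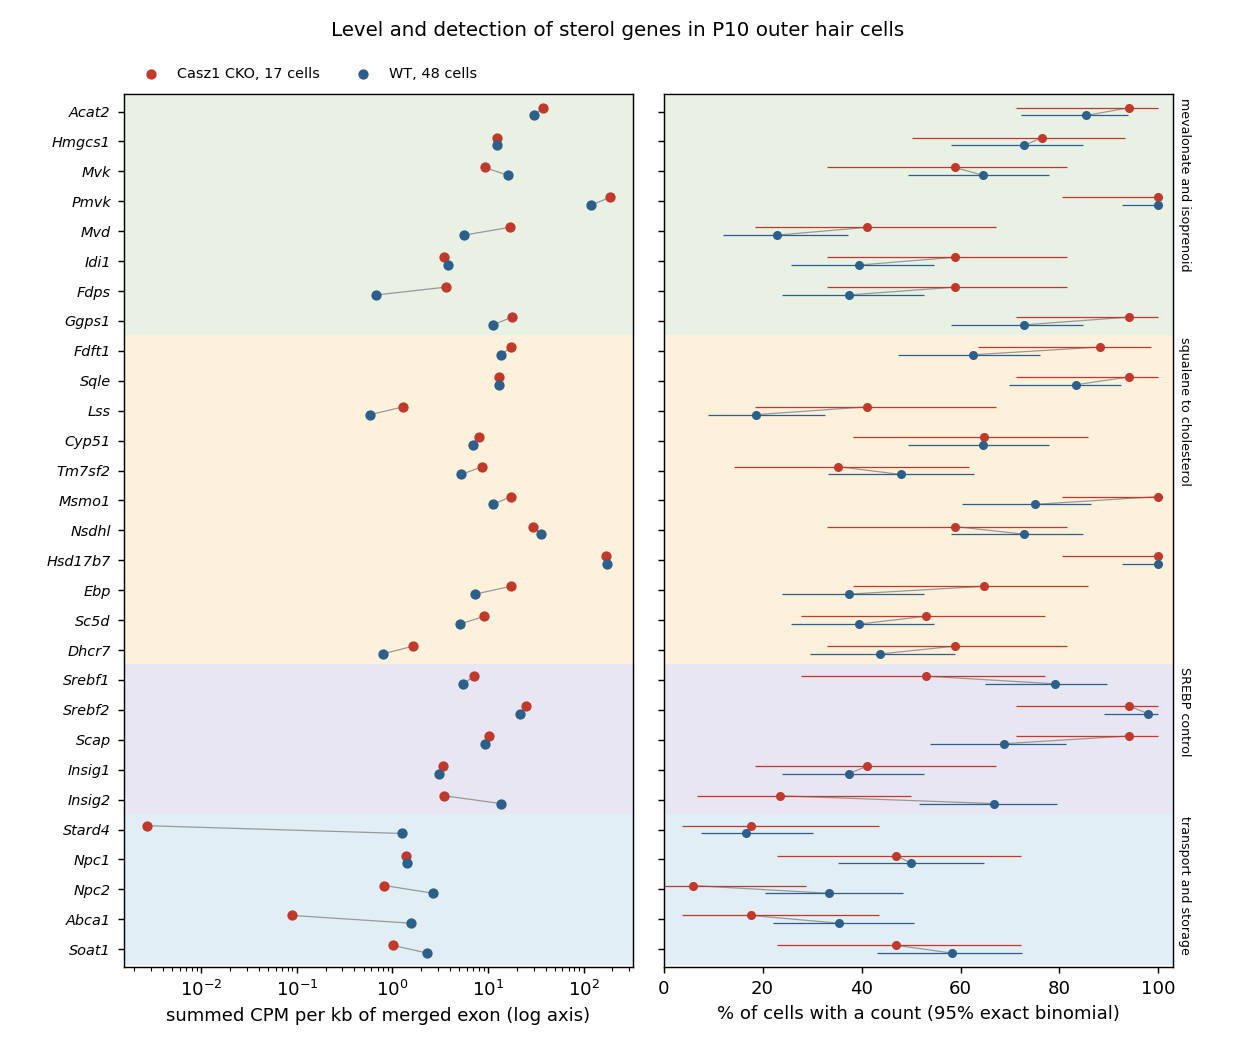
Left, the level of each of the 29 genes as summed CPM per kb of merged exon on a log axis; right, the percent of cells with at least 1 count and its 95% exact binomial interval. Red points are the 17 cells labelled Casz1 CKO, blue points the 48 WT cells, and shading marks the 4 roles. Hsd17b7 and Pmvk had counts in 17 of 17 CKO-labelled and 48 of 48 WT cells, and Stard4 lies farthest left, at 0.00269 CPM per kb in CKO-labelled cells.

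Detection was patchy from cell to cell. Only Hsd17b7 and Pmvk had a count in every cell of both groups, and Msmo1 had one in 17 of 17 CKO-labelled cells and 36 of 48 WT cells. Srebf2 had a count in 16 of 17 CKO-labelled cells and 47 of 48 WT cells. At the other end, Npc2 had a count in 1 of 17 CKO-labelled cells and 16 of 48 WT cells, and Stard4 in 3 of 17 CKO-labelled cells and 8 of 48 WT cells. In several genes 1 cell held much of a group's counts, and this share is given below where it bears on a value.

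By summed CPM, CKO-labelled cells were above WT cells for 18 of the 29 genes and below them for 11, and the median log2 ratio was 0.20 (order-statistic interval -0.04 to 0.65). Over the 10842 genes of the table that reached 5 CPM in either group, all 29 among them, the median was 0.01. Hmgcs1, counted as higher, and Sqle and Npc1, counted as lower, had ratios whose intervals include 0, so their directions were not set. At least 2-fold higher in CKO-labelled cells were 5 of the 29 (17.2%), against 15.1% of the 10842 genes. At least 2-fold lower were also 5 (17.2%), against 14.5%. The share past 2-fold was therefore close to the background in both directions. The directions were split by role: all 5 that were 2-fold higher were synthesis genes (Mvd, Fdps, Lss, Ebp and Dhcr7), and the 5 that were 2-fold lower were Insig2 and 4 of the 5 transport genes (Stard4, Npc2, Abca1 and Soat1). A pair share of at least 70% for CKO-labelled cells was reached by 1 of the 29, Pmvk, against 1.95% of the 10842 genes. A share of at least 70% for WT cells was reached by 1, Insig2, against 2.05%.

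In the mevalonate and isoprenoid steps, 6 of 8 genes were higher in CKO-labelled cells, the median log2 ratio was 0.49 (order-statistic interval -0.82 to 2.40), and 2 of 8 were at least 2-fold higher. Of all 10842 measured genes 50.4% were higher and 15.1% at least 2-fold higher. The 6 include Hmgcs1, at a log2 ratio of 0.005 (-0.026 to 0.037), and Acat2, whose ratio changed sign without 1 cell. Pmvk (chr3:89454541-89469013, + strand) converts mevalonate phosphate to the pyrophosphate. Its lowest, median and highest cell stood at 60.4, 319 and 575 CPM among CKO-labelled cells and at 0.0848, 197 and 697 CPM among WT cells. The groups overlapped, but CKO-labelled cells led in 74.8% of pairs. By summed counts Pmvk had 322 CPM (320 to 325) in CKO-labelled cells and 204 CPM (203 to 205) in WT cells, a log2 ratio of 0.66 (0.65 to 0.67). Leaving out any 1 cell kept that ratio between 0.58 and 0.73, and no near-identical copy or overlapping exon of the gene was found.

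Mvd, which makes isopentenyl pyrophosphate, and Fdps, which joins isoprenoid units into farnesyl pyrophosphate, were the 2 of these 8 genes past 2-fold. Mvd had 31.4 CPM in CKO-labelled cells and 10.5 CPM in WT cells (log2 ratio 1.58, interval 1.53 to 1.64), from a count in 7 of 17 CKO-labelled and 11 of 48 WT cells. Its lowest, median and highest cell stood at 0, 0 and 183 CPM among CKO-labelled cells and at 0, 0 and 154 CPM among WT cells. A larger share of CKO-labelled cells thus held the transcript, while most cells of both groups had none. Fdps ran from 0 through a median of 0.0822 to 172 CPM among CKO-labelled cells and from 0 through a median of 0 to 79.6 CPM among WT cells. By summed counts it had 15.1 CPM in CKO-labelled cells and 2.86 CPM in WT cells (log2 ratio 2.40, interval 2.31 to 2.49), and at least 20 CPM in 5 of 17 CKO-labelled and 1 of 48 WT cells. CKO-labelled cell 4 held 53.5% of its CKO-labelled counts and WT cell 30 held 69.8% of its WT counts. Without those cells in turn the log2 ratio was 1.37 and 4.09, and among cells with at least 10000000 counts it was 0.17, under 2-fold. Fdps also shares 26.7% of its merged exon with the annotated gene Gm43738 on the same strand and has 6 near-identical copies, none above 1.02 CPM in the table, so its level is uncertain.

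The other enzymes of these steps showed smaller ratios. Ggps1, which makes geranylgeranyl pyrophosphate for protein prenylation, had 83.7 CPM in CKO-labelled cells and 53.5 CPM in WT cells, with a log2 ratio of 0.65 and a pair share of 66.0%. Its median cell stood at 66.0 CPM among CKO-labelled cells and 15.98 CPM among WT cells, and the highest cell at 309 CPM among CKO-labelled and 411 CPM among WT cells. Acat2 had 96.5 CPM in CKO-labelled cells and 76.5 CPM in WT cells, but the log2 ratio of 0.33 was -0.12 without CKO-labelled cell 9, and its pair share was 47.98%. A 445-base stretch of Acat2 is shared with Tcp1, a gene at 247 CPM in CKO-labelled cells and 343 CPM in WT cells. Hmgcs1, which makes the HMG-CoA that feeds mevalonate synthesis, stood at 56.9 CPM in CKO-labelled cells and 56.7 CPM in WT cells. The sign of its ratio changed under 7 of the 11 alternatives described at the end. Idi1, the isomerase of isopentenyl pyrophosphate, stood at 12.0 CPM in CKO-labelled cells and 13.4 CPM in WT cells, but CKO-labelled cell 1 held 49.0% of its group's counts, and without it the log2 ratio of -0.16 was -1.02. Mvk, the mevalonate kinase gene directly upstream of Pmvk, was lower instead, with 24.6 CPM in CKO-labelled cells and 43.5 CPM in WT cells (log2 ratio -0.82, pair share 43.7%). Its direction depended on the cells compared, as given below. Hmgcs1, Idi1 and Ggps1 overlap genes on the other strand over 12.1%, 9.215% and 5.44% of their merged exons, and Idi1 has 4 near-identical copies.

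**Figure D2:**
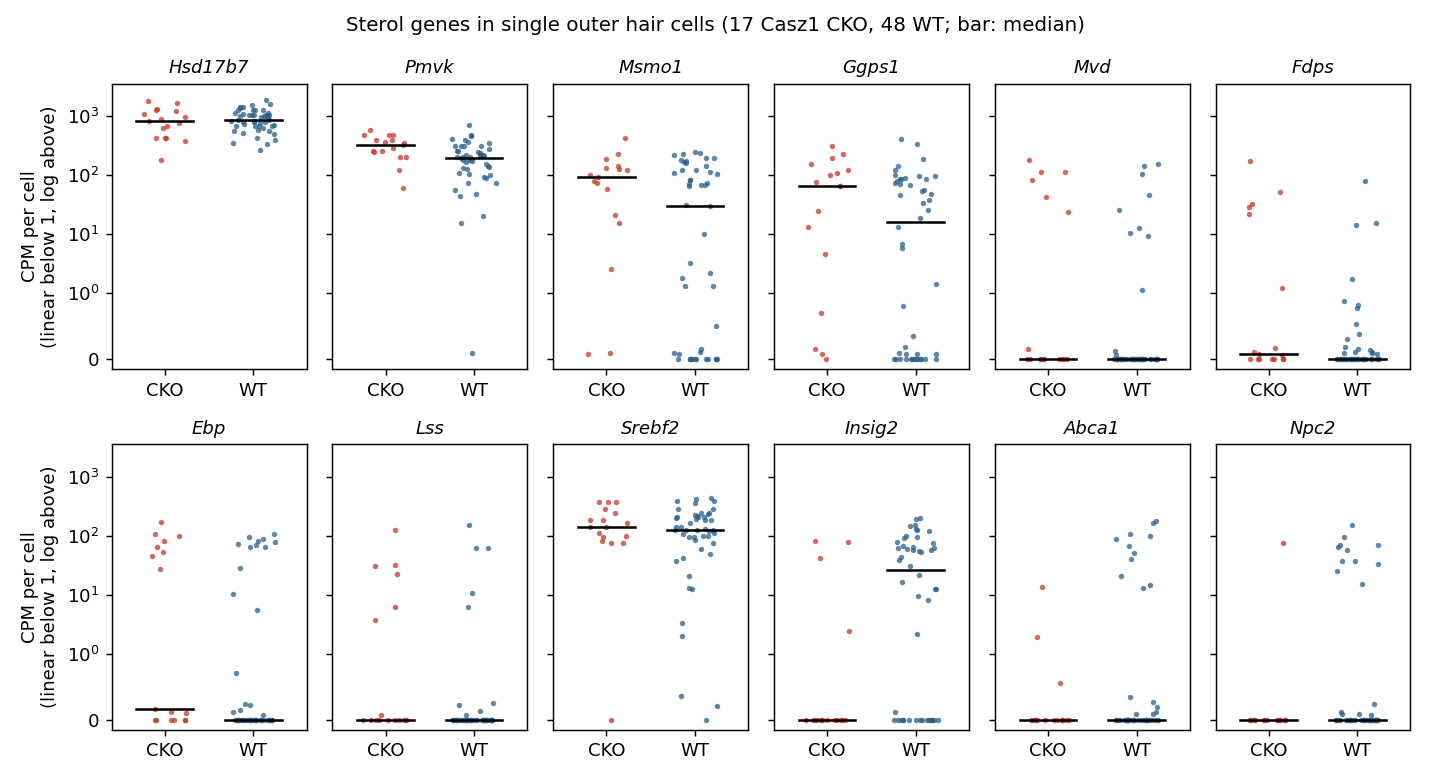
CPM of 12 of the genes in each cell, with 17 cells labelled Casz1 CKO in red left of 48 WT cells in blue and a bar at the median; the axis is linear below 1 CPM and logarithmic above. Pmvk is the panel with the clearest offset towards higher CKO-labelled cells (medians 319 CPM in CKO-labelled and 197 CPM in WT cells), Insig2 the one with the clearest offset towards higher WT cells (medians 0 CPM in CKO-labelled and 26.2 CPM in WT cells), while Hsd17b7 overlaps throughout.

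Between squalene and cholesterol, 8 of 11 genes were higher in CKO-labelled cells, the median log2 ratio was 0.64 (-0.04 to 1.14), and 3 of 11 were at least 2-fold higher, against the same 50.4% and 15.1% of all measured genes. Hsd17b7 (chr1:169949535-169969241, - strand), the gene with the highest WT level per length, differed little. Its lowest, median and highest cell stood at 177, 826 and 1749 CPM among CKO-labelled cells and at 263, 852 and 1846 CPM among WT cells. By summed counts it had 881 CPM in CKO-labelled cells and 905 CPM in WT cells, a log2 ratio of -0.04 with a pair share of 46.8%. In the median CKO-labelled cell Hsd17b7 made up 39.3% of the summed CPM of the 19 synthesis genes (range 11.02% to 69.1%), and in the median WT cell 50.4% (16.2% to 70.8%). Sums over the pathway are therefore given below also without it.

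Msmo1, the C-4 methylsterol oxidase gene, ran from 0.0777 through a median of 91.4 to 426 CPM among CKO-labelled cells and from 0 through a median of 30.4 to 245 CPM among WT cells. By summed counts it had 108 CPM (106 to 109) in CKO-labelled cells and 68.8 CPM (68.1 to 69.5) in WT cells, a log2 ratio of 0.64 and a pair share of 64.6%. Nsdhl, the enzyme of the next step in the same demethylation, stood at 84.2 CPM in CKO-labelled cells and 102 CPM in WT cells (log2 ratio -0.28). Against all WT cells the 3 genes of C-4 demethylation therefore did not differ in 1 direction: Msmo1 was higher, Nsdhl lower and Hsd17b7 within a log2 difference of 0.04. Nsdhl lies on chromosome X, and its direction depended on the cells compared, as given below. Ebp, the sterol isomerase gene on chromosome X, had 40.1 CPM in CKO-labelled cells and 16.8 CPM in WT cells (log2 ratio 1.25, interval 1.21 to 1.30). Counts of Ebp were found in 11 of 17 CKO-labelled cells, the highest at 168 CPM, and in 18 of 48 WT cells, the highest at 107 CPM. Without CKO-labelled cell 5 its log2 ratio was 0.91, under 2-fold.

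Lss and Dhcr7 were 2-fold higher on very few cells. Lss had 13.99 CPM in CKO-labelled cells and 6.33 CPM in WT cells (log2 ratio 1.14), from 7 of 17 CKO-labelled and 9 of 48 WT cells with a count. CKO-labelled cell 11 held 58.4% of its CKO-labelled counts, and without that cell the log2 ratio was -0.03. WT cell 7 held 49.1% of its WT counts, and without that cell the log2 ratio was 2.09. Dhcr7 had 9.54 CPM in CKO-labelled cells and 4.58 CPM in WT cells (log2 ratio 1.06), of which CKO-labelled cell 9 held 51.6%, and without it the log2 ratio was 0.11. Neither gene thus kept a 2-fold difference when its top CKO-labelled cell was left out.

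Among the remaining enzymes, Sc5d, which introduces the C-5 double bond, had 44.5 CPM in CKO-labelled cells and 24.9 CPM in WT cells (log2 ratio 0.84). Tm7sf2, a C-14 sterol reductase gene, had 38.2 CPM in CKO-labelled cells and 23.1 CPM in WT cells (log2 ratio 0.73), although a smaller share of CKO-labelled cells had a count (6 of 17 CKO-labelled against 23 of 48 WT cells), and 12.1% of its merged exon is shared with Vps51 on the same strand. Fdft1, which commits farnesyl pyrophosphate to squalene, had 74.3 CPM in CKO-labelled cells and 57.1 CPM in WT cells (log2 ratio 0.38), with 18.3% of its merged exon overlapped by Ctsb on the other strand. Cyp51, the lanosterol demethylase gene, had 35.6 CPM in CKO-labelled cells and 30.4 CPM in WT cells (log2 ratio 0.22, or -0.08 without CKO-labelled cell 9). Sqle, which makes squalene epoxide, was level at 71.6 CPM in CKO-labelled cells and 72.2 CPM in WT cells. No gene of these 11 was 2-fold lower in CKO-labelled cells.

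Within the SREBP control system the transcription factor and escort genes differed little, and Insig2 stood apart. Srebf2 ran from 0 through a median of 142 to 374 CPM among CKO-labelled cells and from 0 through a median of 126 to 426 CPM among WT cells, with 179 CPM in CKO-labelled and 156 CPM in WT cells by summed counts (log2 ratio 0.20, pair share 54.5%). Srebf1, which mainly serves fatty acid genes, had 40.5 CPM in CKO-labelled cells and 30.8 CPM in WT cells (log2 ratio 0.39, pair share 47.1%). Fewer CKO-labelled cells had a count of it (9 of 17 CKO-labelled against 38 of 48 WT cells). CKO-labelled cell 1 held 36.1% of the Srebf1 counts of its group, and without that cell the log2 ratio was -0.14. Scap, the escort, had 76.9 CPM in CKO-labelled cells and 68.4 CPM in WT cells (log2 ratio 0.17), with counts in 16 of 17 CKO-labelled and 33 of 48 WT cells. For all 3 genes the cells of both genotypes overlapped. Scap overlaps a gene on the other strand over 13.2% of its merged exon.

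Insig2 (chr1:121304353-121332589, - strand) encodes a protein that retains SCAP in the endoplasmic reticulum. It had a count in 4 of 17 CKO-labelled cells and 32 of 48 WT cells. Its lowest, median and highest cell stood at 0, 0 and 80.8 CPM among CKO-labelled cells and at 0, 26.2 and 196 CPM among WT cells, and WT cells led in 72.7% of pairs. By summed counts it had 12.1 CPM (11.6 to 12.6) in CKO-labelled cells and 47.2 CPM (46.6 to 47.7) in WT cells, a log2 ratio of -1.97 (-2.03 to -1.91). Leaving out any 1 cell gave ratios between -2.76, without CKO-labelled cell 1, and -1.84. Its paralog Insig1, itself a well-known SREBP target, was low in both groups, with 10.3 CPM in CKO-labelled cells and 9.39 CPM in WT cells. CKO-labelled cell 5 held 66.5% of the Insig1 counts of its group, and without it the log2 ratio of 0.14 was -1.34.

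By summed level, 4 of the 5 transport and storage genes were at least 2-fold lower in CKO-labelled cells and Npc1 was level, but each was sparse. Of all measured genes, 14.5% were at least 2-fold lower. Abca1 (chr4:53030787-53159895, - strand), the exporter of cholesterol to lipid-poor apolipoproteins, ran from 0 through a median of 0 to 13.7 CPM among CKO-labelled cells and from 0 through a median of 0 to 179 CPM among WT cells. It had 0.926 CPM (0.797 to 1.07) in CKO-labelled cells and 16.3 CPM (15.95 to 16.63) in WT cells by summed counts, a log2 ratio of -4.14. At least 20 CPM was seen in 0 of 17 CKO-labelled cells and 9 of 48 WT cells. CKO-labelled cell 2 held 84.9% of the CKO-labelled counts, and without it the log2 ratio was -6.78. Most WT cells also lacked the transcript, so WT cells led in 59.7% of pairs only.

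Npc2, the soluble lysosomal carrier that hands cholesterol to NPC1, had counts in 1 of 17 CKO-labelled cells and 16 of 48 WT cells. Its level was 4.48 CPM in CKO-labelled cells and 14.6 CPM in WT cells (log2 ratio -1.70, WT higher in 63.0% of pairs). Since CKO-labelled cell 17 held all counts of its group, leaving it out gave a bound of -9.84 from a floor of 3 counts over the group. Soat1, which esterifies cholesterol for storage, had 9.86 CPM in CKO-labelled cells and 22.8 CPM in WT cells (log2 ratio -1.21), and without WT cell 5 the ratio was -0.95, under 2-fold. Npc1, the membrane partner of NPC2, was level at 15.8 CPM in CKO-labelled cells and 16.2 CPM in WT cells (log2 ratio -0.03, interval -0.09 to 0.03). Stard4, a cytosolic sterol carrier, had 3 counts in 3 of 17 CKO-labelled cells and 3896 counts in 8 of 48 WT cells, a log2 ratio of -8.89 (-11.17 to -7.34). WT cell 23 held 50.9% of the Stard4 counts, and 3 WT cells reached 20 CPM. The pair share for Stard4 was 49.8%, so the ratio described a few WT cells rather than the group.

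Counted per cell, any of the 5 transport genes reached 20 CPM in 6 of 17 CKO-labelled cells (35.3%, exact binomial interval 14.2% to 61.7%) and in 31 of 48 WT cells (64.6%, 49.5% to 77.8%). The summed CPM of the 5 genes had a lowest, median and highest cell of 0, 13.7 and 128 CPM among CKO-labelled cells and of 0, 45.1 and 324 CPM among WT cells, and WT cells led in 67.5% of pairs. The share of cells with such a level was lower in CKO-labelled cells. So was the highest cell, though it was taken from 17 CKO-labelled and 48 WT cells, which favours the larger group. Of WT cells 1 to 11, 7 of 11 reached 20 CPM. Of cells 12 to 45 and 46 to 48, 23 of 34 and 1 of 3 did. Median sums in these 3 parts were 30.9, 53.4 and 11.5 CPM, the last below the 13.7 CPM of CKO-labelled cells. WT cells led in 65.8%, 69.0% and 56.9% of pairs. Markers of glia and supporting cells were lower in CKO-labelled cells as well, while 6 neuronal markers had a median of 519 CPM in CKO-labelled cells and 463 CPM in WT cells and 4 endothelial markers had a median of 0 in both. The summed level of 7 glial markers had a median of 16.8 CPM in CKO-labelled cells (range 0 to 220) and 97.4 CPM in WT cells (0 to 460), with 2 of 7 measured, Mbp, Pmp22 and Mag among those at 0 in CKO-labelled cells, and Pmp22 and Mag at 0 in WT cells. The 9 supporting cell markers had medians of 9.27 CPM in CKO-labelled cells (0 to 183) and 45.03 CPM in WT cells (0.266 to 481), with 4 of 9 measured, Sox2, Prox1 and Hes1 at 0 in CKO-labelled cells and Slc1a3 at 0 in WT cells. Across the 48 WT cells the transport sum and the sum of both marker lists had a Spearman rho of 0.02, and across the 17 CKO-labelled cells 0.20; the markers' part in the genotype difference was not tested.

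The 19 synthesis genes gave a summed level of 1183, 2019 and 3074 CPM in the lowest, median and highest CKO-labelled cell and of 820, 1749 and 3103 CPM in the WT cells, a pair share of 62.4%. Without Hsd17b7 the values were 553, 1045 and 1789 CPM among CKO-labelled cells and 271, 845 and 1391 CPM among WT cells, a pair share of 71.6%. In that sum the upper end of the CKO-labelled cells was the part that cleared the WT cells. Both shares were lowest for WT cells 46 to 48. For all 19 genes the share was 70.05% for WT cells 1 to 11, 61.85% for cells 12 to 45 and 39.22% for cells 46 to 48. The median of cells 46 to 48 was 2257 CPM, above the 2019 CPM of CKO-labelled cells. Without Hsd17b7 the shares were 72.19%, 72.66% and 56.86% in the same order. The 8 mevalonate and isoprenoid genes alone gave 240, 624 and 1243 CPM among CKO-labelled cells and 150, 439 and 890 CPM among WT cells, a share of 68.6%. The 11 genes after squalene gave a median of 1359 CPM in CKO-labelled cells and 1287 CPM in WT cells (share 52.7%), and the 5 control genes 275 CPM in CKO-labelled cells and 257 CPM in WT cells (share 52.8%).

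CKO-labelled cells also had counts for more of the 19 synthesis genes, with a median of 13 genes (9 to 17) against 11 genes in WT cells (6 to 16) and a pair share of 73.7%. This held against WT cells 12 to 45, with a share of 80.3%, but not against WT cells 1 to 11, whose median was also 13 genes and whose share was 51.3%. After thinning each cell to 5000000 counts the medians were again 13 in CKO-labelled cells and 11 in WT cells, with a share of 67.4% against all WT cells and 50.8% against WT cells 1 to 11. The number of all genes detected had a median of 7417 in CKO-labelled cells and 7586 in WT cells. Within WT cells the number of synthesis genes with a count and the number of all genes detected had a rho of 0.70. For the transport genes the count ran the other way, with a median of 1 of 5 genes in CKO-labelled cells (0 to 4) and 2 of 5 in WT cells (0 to 5).

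**Figure D3:**
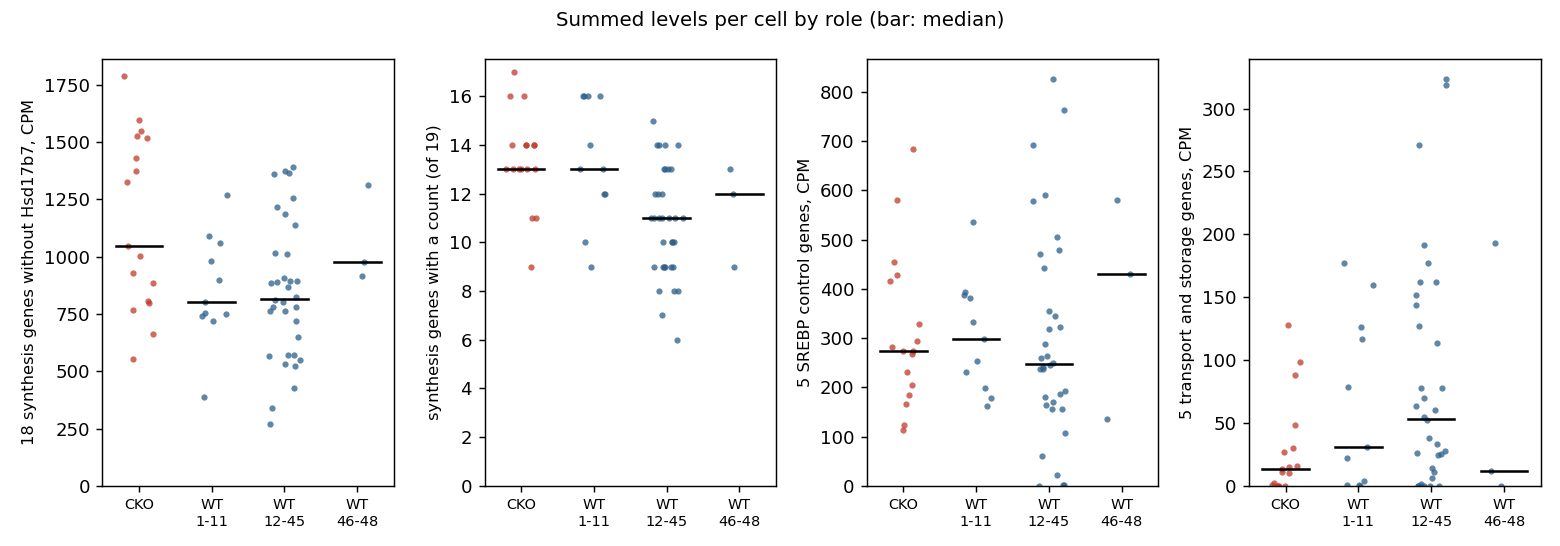
Per-cell sums by role: CPM of the 18 synthesis genes without Hsd17b7, number of the 19 synthesis genes with a count, CPM of the 5 SREBP control genes and CPM of the 5 transport and storage genes. The 17 cells labelled Casz1 CKO (red) stand left of WT cells 1 to 11, 12 to 45 and 46 to 48 (blue), and bars are medians; the synthesis sum has medians of 1045, 804, 816 and 978 CPM from left to right.

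WT cells were not uniform. In earlier results of these data their numbers fell into runs of 1 to 11, 12 to 45 and 46 to 48 that differed in the level of mt-Co2, for which the labels name no batch. Here mt-Co2 had a median of 147 CPM in CKO-labelled cells and of 50.8, 326 and 109 CPM in the WT runs. In addition, 15 of 17 CKO-labelled cells but 9 of 48 WT cells, 8 of them in the first run, had the Xist pattern, meaning 10 or more Xist counts beside less than 10 summed over 4 Y-linked genes. Genotype, run and sex pattern are therefore mixed, and the gene ratios and list medians were also taken against each WT run and between Xist-pattern cells alone.

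Pmvk was higher in CKO-labelled cells against every part of the WT cells, with log2 ratios of 0.46, 0.75 and 0.76 against the runs in order and of 0.40 between Xist-pattern cells. Its pair share was 67.9%, 77.2%, 72.5% and 68.1% in the same order. Msmo1 likewise kept ratios of 0.95, 0.51, 0.89 and 0.81. Insig2 was lower throughout, with -0.80, -2.26, -2.21 and -1.18, so against WT cells 1 to 11 it was under 2-fold, and WT cells led in 64.97%, 74.9%, 75.5% and 65.2% of pairs. Its level was 12.1 CPM in CKO-labelled cells and 21.02, 57.7 and 56.0 CPM in the WT runs. Abca1 was lower by -3.46, -4.38, -3.87 and -3.62, and Npc2 by -1.86, -1.16, -3.54 and -1.59. Hsd17b7 stayed within -0.18 to 0.08.

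Other genes depended on the run. Fdft1 had 74.3 CPM in CKO-labelled cells and 5.62, 64.7 and 204 CPM in the WT runs, so its log2 ratio was 3.73, 0.20 or -1.46. Sqle had 71.6 CPM in CKO-labelled cells and 46.04, 90.2 and 9.004 CPM in the runs, with ratios of 0.64, -0.33 and 2.99. Lss had 13.99 CPM in CKO-labelled cells and 18.3 CPM in WT cells 1 to 11, 1.74 CPM in cells 12 to 45 and no count in cells 46 to 48, and between Xist-pattern cells its ratio was -0.83. Stard4 had 10.9 CPM in WT cells 12 to 45 but 0.0257 CPM in cells 1 to 11 and no count in cells 46 to 48. Soat1 was higher in CKO-labelled cells by 0.34 between Xist-pattern cells. By direction, 7 of 29 genes changed sign against WT cells 1 to 11, 1 against cells 12 to 45, 12 of 28 against the 3 cells 46 to 48, and 7 of 29 between Xist-pattern cells.

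**Figure D4:**
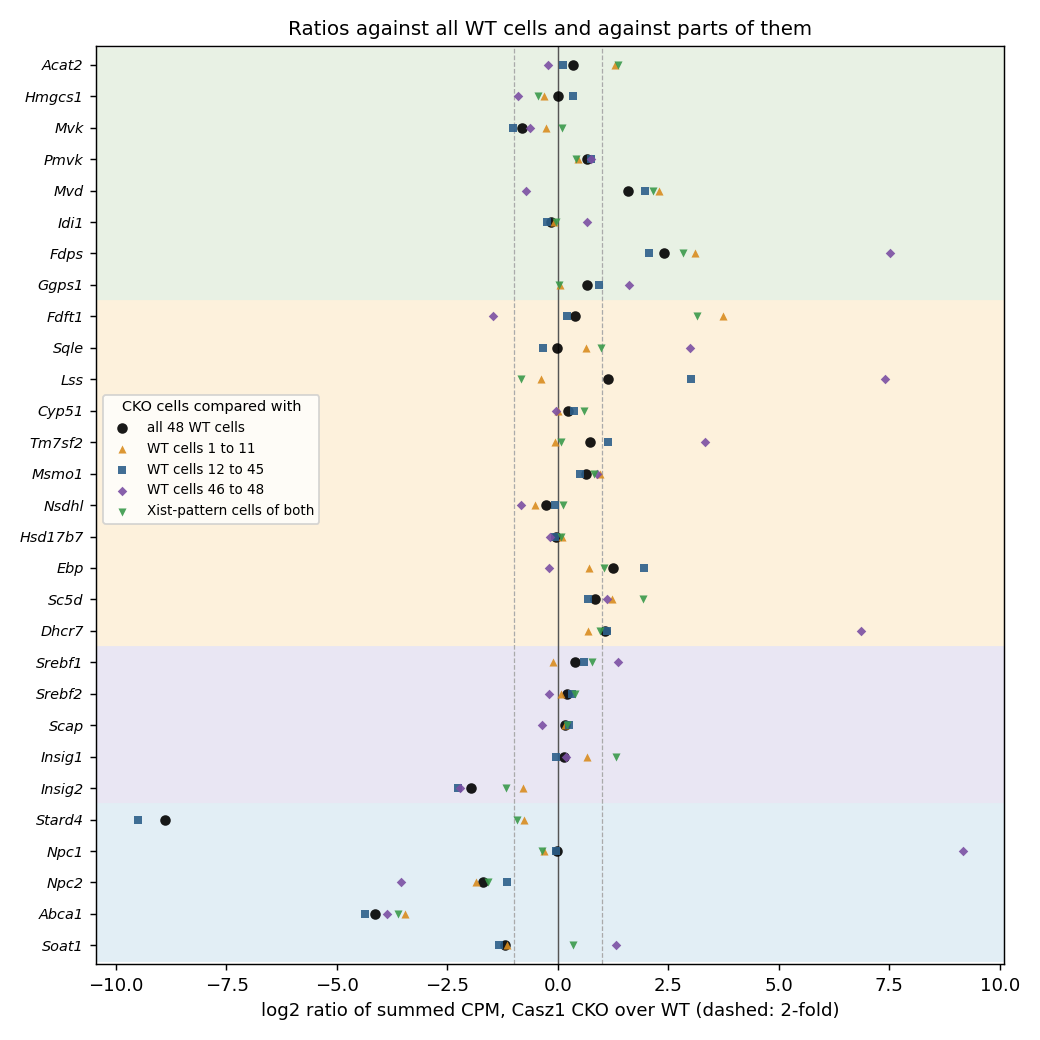
Log2 ratio of summed CPM, CKO-labelled over WT, for each of the 29 genes against all 48 WT cells (black), WT cells 1 to 11 (triangles), 12 to 45 (squares), 46 to 48 (diamonds) and between Xist-pattern cells of both groups (inverted triangles); dashed lines mark 2-fold. Pmvk, at 0.40 to 0.76, and Msmo1 keep their markers right of 0 and Insig2, at -2.26 to -0.80, left of it; the diamonds of Fdps, Lss and Dhcr7 are bounds from a floor of 3 counts, and Stard4 has no diamond.

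The genes showed little common variation from cell to cell. Over the 17 genes with a count in at least 50% of WT cells, the median Spearman rho of 136 pairs was 0.03 across CKO-labelled cells and 0.02 across WT cells, against 0.01 in both groups for all genes that passed the same filter. Within WT cells 12 to 45 it was 0.06, against 0.01. The 11 synthesis genes among them had medians of 0.04 in CKO-labelled cells and 0.01 in WT cells. The highest pair in WT cells was Nsdhl with Npc1, at a rho of 0.47, followed by Acat2 with Npc1 at 0.36 and Nsdhl with Hsd17b7 at 0.36, and the lowest was Fdft1 with Npc1 at -0.33. Across 17 CKO-labelled cells the range was wider, between -0.81 for Hmgcs1 with Hsd17b7 and 0.69 for Pmvk with Insig2. All pairs come from the same libraries and share their depth and dropout, and weak values in sparse counts are no finding.

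Genes near these pathways did not share 1 direction. Of 30 other sterol genes, 22 reached 5 CPM, and CKO-labelled cells stood above WT cells for 13 and below for 9, 2 of them past 2-fold each way, at a median log2 ratio of 0.07, where 5469 of the 10842 measured genes were higher and 5373 lower. Cyp46a1, which hydroxylates cholesterol for export from neurons, had a log2 ratio of -1.94 from counts in 6 of 17 CKO-labelled and 13 of 48 WT cells, and without CKO-labelled cell 3, which held 95.2% of its group's counts, the ratio was -6.23. Its pair share of 52.5% leaned towards CKO-labelled cells, opposite to the summed ratio. Mbtps2, the site-2 protease of SREBP, had 5.45 CPM in CKO-labelled cells and 12.97 CPM in WT cells (log2 ratio -1.25), which became -2.57 without CKO-labelled cell 6 and -0.86 without WT cell 3. Both were absent from most cells of either group. Mbtps2 lies on chromosome X and shares 28.4% of its merged exon with Yy2 on the same strand, so its level is uncertain. The pair share of Mbtps2 was 47.5%. Of 15 fatty acid genes known as SREBP targets, 13 reached 5 CPM, with 4 higher and 9 lower and a median of -0.19. Gpam, the first acyltransferase of triglyceride synthesis, had 396 CPM in CKO-labelled cells and 212 CPM in WT cells (log2 ratio 0.90, pair share 70.6%), with lowest, median and highest cells of 50.3, 355 and 1044 CPM among CKO-labelled cells and of 0, 191 and 690 CPM among WT cells. Fasn, the fatty acid synthase gene, had 28.1 CPM in CKO-labelled cells and 48.7 CPM in WT cells (log2 ratio -0.79). Acaca, acetyl-CoA carboxylase, had 3.37 CPM in CKO-labelled cells and 10.6 CPM in WT cells (log2 ratio -1.65, or -2.53 without CKO-labelled cell 2), and Pnpla3, a lipid droplet lipase gene, 29.9 CPM in CKO-labelled cells and 12.6 CPM in WT cells (log2 ratio 1.24, or 0.86 without CKO-labelled cell 14).

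Of 12 genes that use isoprenoids downstream of the mevalonate steps, all reached 5 CPM, with 5 higher and 7 lower and a median log2 ratio of -0.36. Within the dolichol branch, Nus1 had 44.6 CPM in CKO-labelled cells and 21.3 CPM in WT cells (log2 ratio 1.07, or 0.61 without CKO-labelled cell 10), while Dhdds, whose product is its partner in the same enzyme complex, had 14.8 CPM in CKO-labelled cells and 26.7 CPM in WT cells (log2 ratio -0.86). Dolk, the dolichol kinase gene, had 44.9 CPM in CKO-labelled cells and 24.2 CPM in WT cells (log2 ratio 0.89), and Coq2, which starts ubiquinone synthesis from an isoprenoid, 23.2 CPM in CKO-labelled cells and 40.8 CPM in WT cells (log2 ratio -0.82). For comparison, CKO-labelled cells were above WT cells for 14 of the 19 synthesis genes and below for 5, at a median of 0.64 (-0.01 to 1.06), and all measured genes had a median of 0.01. Hmgcs1 is among the 14 and Sqle among the 5, both with ratio intervals that include 0.

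Libraries held 8239671 to 15320549 counts in CKO-labelled cells and 7458126 to 17107710 in WT cells. The 8 outer hair cell markers, prestin and oncomodulin genes among them, were all measured in both groups, with a summed level of 34340, 51290 and 91010 CPM in the lowest, median and highest CKO-labelled cell and 16240, 40140 and 64660 CPM in the WT cells. Inner hair cell markers had medians of 79.8 CPM in CKO-labelled cells and 156 CPM in WT cells, with Tbx3 at 0 in both. Mitochondrially encoded genes took a median of 4.76% of counts in CKO-labelled cells and 6.52% in WT cells. Whether these differences bear on the levels above was not tested.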

How the data were processed

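Single-cell cDNA was made with the full-length Smart-Seq HT kit, which adds no molecular identifiers, per the labels' protocols. The deposited table holds whole-number read counts per gene, and the submitters' processing notes name HISAT2 2.2.1, StringTie 2.2.1, featureCounts 2.0.1 and the mm10 build. The sources used here do not give an annotation release, a strand setting or a filter. Genes that overlap on opposite strands may therefore share reads. Titles and the design name OHCs and were followed, although the common protocol mentions picked inner hair cells and iOHCs. No 2 of the 65 columns were identical, and no column was left unused.

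Counts were summed per genotype and divided by the summed totals to give CPM, counts per 1000000 counts. Intervals are exact Poisson for CPM, exact conditional (Clopper-Pearson) for ratios and exact binomial for shares, at 95%. Those for CPM and ratios cover counting error only, as reads are not independent molecules. Those for shares take each cell as a unit, and order-statistic intervals of list medians take each gene as a unit. A group with no count was set to a floor of 3 counts. A gene counted as measured when either group reached 5 CPM. No cell was removed, and doublets were not sought because cells were picked singly. Counts and medians of lists are descriptions, to be read against those of all measured genes. The summed-count ratio and its interval were checked on simulated Poisson counts, with the same rate for a gene in every cell of a group. That setting lacks the spread between cells seen here, and the other steps were not checked in this way. Exon lengths, overlaps and positions came from GENCODE M21 on GRCm38 (96.2% of symbols matched), near-identical copies from BLAST 2.17.0 (at least 90% over 300 bases) and promoters from RefSeq. Python 3.11.15, scipy 1.17.1, edgeR 4.0.16 and DESeq2 1.42.0 were used, the last 2 only for scaling factors.

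The genes and lists were chosen with earlier results of these data known. Named genes were all 29 and up to 4 of each other list with the largest absolute ratio among measured genes; 2 genes that this rule takes from the other sterol list are not reported here. Alternatives were other scalings, the mean or median of per-cell CPM, a 20 CPM filter, leaving out cells, deeper cells, Xist-pattern cells, and WT runs. Chosen after seeing the data was a set without the 10 genes that have near copies or overlaps of at least 5%, the pair shares against WT runs, and leaving out cells for genes of the other lists.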

Additional observations from a re-analysis of the deposited data

How the results depend on the processing

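No paired analysis was possible because a cell's number pairs it with no other cell and the genotypes were compared without a test. Of 303 ratios of the 29 genes under the alternatives, 37 changed sign, and 10 genes never did (Pmvk, Fdps, Ggps1, Msmo1, Sc5d, Dhcr7, Insig2, Stard4, Npc2 and Abca1). Fdps and Dhcr7 had no count in WT cells 46 to 48, so the floor of 3 counts set their sign there. Stard4 had 3 counts over all CKO-labelled cells. For such sparse genes a kept sign does not make the ratio firm. DESeq2 factors shifted the median of all measured genes by -0.12. The median log2 ratio of the synthesis genes was 1.09 and that of the squalene to cholesterol genes 1.397 from medians of per-cell CPM, which gave a value for 14 of the 29 genes. The SREBP control median of 0.17 was 0.13 with TMM factors, 0.0475 with DESeq2 factors, 0.14 without mitochondrial and ribosomal protein genes, 0.29 from per-cell medians, 0.21 without the cell with most counts in each group, 0.12 in cells of at least 10000000 counts, 0.39 in Xist-pattern cells, 0.074 against the WT run 1 to 11, 0.24 against 12 to 45 and -0.21 against 46 to 48. The transport median of -1.70 was -0.93 in Xist-pattern cells, -1.15 against WT run 1 to 11 and -1.11 against run 46 to 48, with no value under the 20 CPM filter or from per-cell medians.

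The count of genes at least 2-fold higher, 5, was 3 without the cells with most counts, 10 against WT cells 46 to 48 and 2 with the 20 CPM filter. The count at least 2-fold lower, 5, was 1 from per-cell medians, 3 in Xist-pattern cells, 3 against WT cells 1 to 11 and 2 with the 20 CPM filter, which left 20 genes. Fdps, Lss and Dhcr7 had no count in WT cells 46 to 48, so their ratios there are bounds from a floor of 3 counts. The share of all measured genes past 2-fold was not taken under any alternative or when leaving out cells. These counts are therefore no result about the genes. Reversed were Mvd (-0.73) and Ebp (-0.20) against WT cells 46 to 48, Lss between Xist-pattern cells (-0.83) or against the WT run 1 to 11 (-0.39), and Soat1 between Xist-pattern cells (0.34) or against the WT run 46 to 48 (1.31). The cause was not tested.

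Leaving out each cell in turn gave medians of 0.086 to 0.32 for all 29 genes, 0.35 to 0.68 for synthesis, 0.15 to 0.56 for mevalonate and isoprenoid steps, 0.35 to 0.74 for squalene to cholesterol, -0.00078 to 0.24 for SREBP control (lowest without CKO-labelled cell 5) and -4.24 to -1.34 for transport (lowest without CKO-labelled cell 17), and both 2-fold counts lay between 4 and 6. Of 1885 such ratios of single genes, 90 changed sign; the ratio of Lss lay between -0.0273 without CKO-labelled cell 11 and 2.09 without WT cell 7.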
